A study of Mus musculus with 7 samples.

Results

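The genes described here are 39 type I interferon-stimulated genes, a named list of transcripts that cells make when type I interferon reaches them. They were taken from the list by symbol, after the gene identifiers in the files had been mapped to mouse symbols, and kept where at least 10 reads were counted in at least 3 libraries. All 39 of the 39 listed genes passed, out of 55385 gene identifiers in each file. The study sequenced RNA from tumour-associated macrophages sorted out of gliomas that grew in the brains of C57BL/6 mice after injection of QPP7 cells, a mouse glioma line. In 1 group, of 3 libraries, the injected tumour cells carried the hairpin shChi3l1 against Chi3l1, the gene of the secreted protein chitinase-3-like-1; in the other, of 4 libraries, they carried the control vector shSC. The labels give both groups the same protocol, with 100000 QPP7 cells injected, so each value below comes from macrophages next to tumour cells with or without the hairpin. The macrophages themselves carried no hairpin. The sources used here give neither the age of the mice nor the antibodies of the sort. Replicates 1, 2 and 3 are called pairs in the labels, and nothing states that each library came from its own mouse, so a p-value here is set against differences among libraries that may be technical in part.

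Type I interferons (interferon beta and the interferon alphas) are made when a cell senses foreign or misplaced nucleic acid, and they bind a receptor built from IFNAR1 and IFNAR2. The kinases JAK1 and TYK2 on that receptor phosphorylate STAT proteins, among them STAT2, which joins IRF9 in the factor ISGF3. ISGF3 binds the interferon-stimulated response element (ISRE) near the genes described here. Several products (IRF7, RIG-I, MDA5) raise the response further, and others (USP18, SOCS proteins) damp it. In brain tumours the response is known in macrophages and microglia, where it accompanies antigen presentation and T-cell recruitment.

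Depth ranged from 19169129 counted reads (shSC 4) to 36502664 (shChi3l1 2), and each of the 39 genes had between 32 and 36436 reads in every library. Levels are CPM, counts scaled to the depth of each library by the trimmed mean of M values (TMM), unless they are given as RPKM, which divides by exonic length and was used only to order genes by abundance. The libraries differed in quality measures within both groups. Genes with over 5000 exonic bases took 12.6% of the reads in shChi3l1 1 and 14.8% in shSC 1, against 16.8% to 20.7% in the other libraries. Genes of ribosomal proteins took 6.19% and 5.74% in those 2 libraries and 2.00% to 4.59% in the others. The target of the hairpin, Chi3l1 itself, had 28, 31 and 7 reads in the shChi3l1 macrophages and 23, 28, 24 and 18 in the shSC macrophages, a log2 difference of 0.00 (SE 0.66), which checks nothing about the tumour cells, where the hairpin was expressed.

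DNA around the transcription start was searched for motifs that some of the genes share. RefSeq promoter windows (250 bases before to 50 after the transcription start, GRCm38.p6) were matched by symbol for 29 of the 39 genes; Mx1, Mx2, Oas2, Dhx58, Usp18, Zbp1, Ifi204, Parp9, Parp14 and Rtp4 had no entry. The core of the ISRE, searched as GAAA, any 2 bases and GAAA again, or the reverse complement of that, with overlapping matches counted separately, stood in the window of 16 of the 29 (55.2%), against 3.99% of the 27025 genes in the table. For Ifih1, Ddx58 and Eif2ak2 the only match began after the start, and so did that of 1 Trim30a window. At least 2 matches stood in 7 of the 29 windows (24.1%), against 0.266% of all genes. The core of the gamma-activated site (GAS), searched as TTCNNNGAA, which is its own reverse complement, stood in 7 of the 29 (24.1%), against 9.55% of all genes. A match is a run of letters and not a shown site, and a window without one says only that these letters are not in it. The stretches below are those of the most abundant genes (Isg15, Bst2, Oas1a), of a transcription factor of the response (Stat2), of 2 genes with small unadjusted p (Oas3, Slfn5), and of 3 genes that parted in 1 library (Ifit1, Ifit3, Rsad2). Each is written 5′ to 3′ on the strand of its gene, with ISRE core matches in capitals. The Slfn5 stretch precedes its RefSeq start but lies inside the gene's span in the counts (chr11:82951349-82964840). The first 30 transcribed bases of a window matched a GENCODE transcript for 22 of the 29 genes.
Isg15, chr4:156200845-156200926, minus strand: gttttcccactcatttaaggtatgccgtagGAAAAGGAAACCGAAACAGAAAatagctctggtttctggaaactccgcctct
Bst2, chr8:71537557-71537632, minus strand: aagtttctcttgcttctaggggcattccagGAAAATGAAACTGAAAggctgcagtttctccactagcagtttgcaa
Oas1a, chr5:120907526-120907575, minus strand: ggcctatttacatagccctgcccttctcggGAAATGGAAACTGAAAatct
Stat2, chr10:128270248-128270315, plus strand: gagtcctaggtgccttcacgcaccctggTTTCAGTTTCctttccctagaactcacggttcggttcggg
Oas3, chr5:120777695-120777764, minus strand: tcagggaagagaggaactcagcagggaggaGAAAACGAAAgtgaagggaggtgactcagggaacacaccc
Slfn5, chr11:82951917-82951986, plus strand: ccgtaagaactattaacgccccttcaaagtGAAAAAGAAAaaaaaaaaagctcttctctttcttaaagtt
Ifit1, chr19:34640755-34640843, plus strand: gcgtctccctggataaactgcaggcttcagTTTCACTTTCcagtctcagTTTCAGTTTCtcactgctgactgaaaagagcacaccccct
Ifit3, chr19:34583343-34583446, plus strand: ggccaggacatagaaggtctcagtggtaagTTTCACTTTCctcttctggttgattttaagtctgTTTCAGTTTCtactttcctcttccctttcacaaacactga
Rsad2, chr12:26456533-26456602, minus strand: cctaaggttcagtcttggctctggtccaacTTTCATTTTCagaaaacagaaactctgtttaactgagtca
The Isg15 stretch holds 3 overlapping matches that begin 78, 72 and 66 bases before the start. Bst2 and Oas1a hold 2 overlapping matches each, and Ifit1 and Ifit3 hold 2 separate ones each. The stretch of Ifit3b was identical to that of Ifit3 over 104 of 104 bases, and that of Oas1g to that of Oas1a over 48 of 48. The hairpin comparison gave close medians with and without the motif: the median log2 fold change was 0.37 over the 16 genes with a core match and 0.38 over the 13 without.

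No interferon-stimulated gene passed the test between macrophages from shChi3l1 and from shSC tumours. With edgeR's quasi-likelihood test and Benjamini-Hochberg adjustment over 15448 genes, 0 of the 39 genes were called (0% of all genes tested were), every adjusted p was 0.9999, and 0 of the 39 reached an unadjusted p under 0.05 (1.48% of all genes did). limma voom with sample weights and DESeq2 gave 0 of 39 at that unadjusted level too (4.62% and 2.27% of all genes), and DESeq2's adjusted p called 0 of the 39 and 1 gene in all (0.00651%). Fitted log2 fold changes were above 0 for 36 of the 39 genes (57.6% of all genes), with a median of 0.33 against 0.07 over all genes tested, and ran from -0.36 (Ifit1) to 1.05 (Ddx58). The median standard error of a single gene was 0.51, and in 0 of the 39 genes did the 3 shChi3l1 libraries lie all above or all below the 4 shSC libraries (1.24% and 1.25% of all genes). Among single libraries left out, shChi3l1 2 moved the side of 0 on which the genes fell the most. Without it the median was 0.03 (0.04 over all genes) and 21 genes were above 0 (53.4% of all genes). Without shSC 4 the median was 0.14 (0.08 over all genes) with 29 above 0 (57.8% of all genes). Without shChi3l1 3, 38 were above 0 (55.8% of all genes). With the replicate number as a block, over the 6 paired libraries, the median was 0.09 with 26 genes above 0 (52.4% of all genes), and 3 of the 39 genes (Slfn5, Ddx58 and Slfn8) had an unadjusted p under 0.05 in edgeR (2.91% of all genes), with 0 called.

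**Figure D1:**
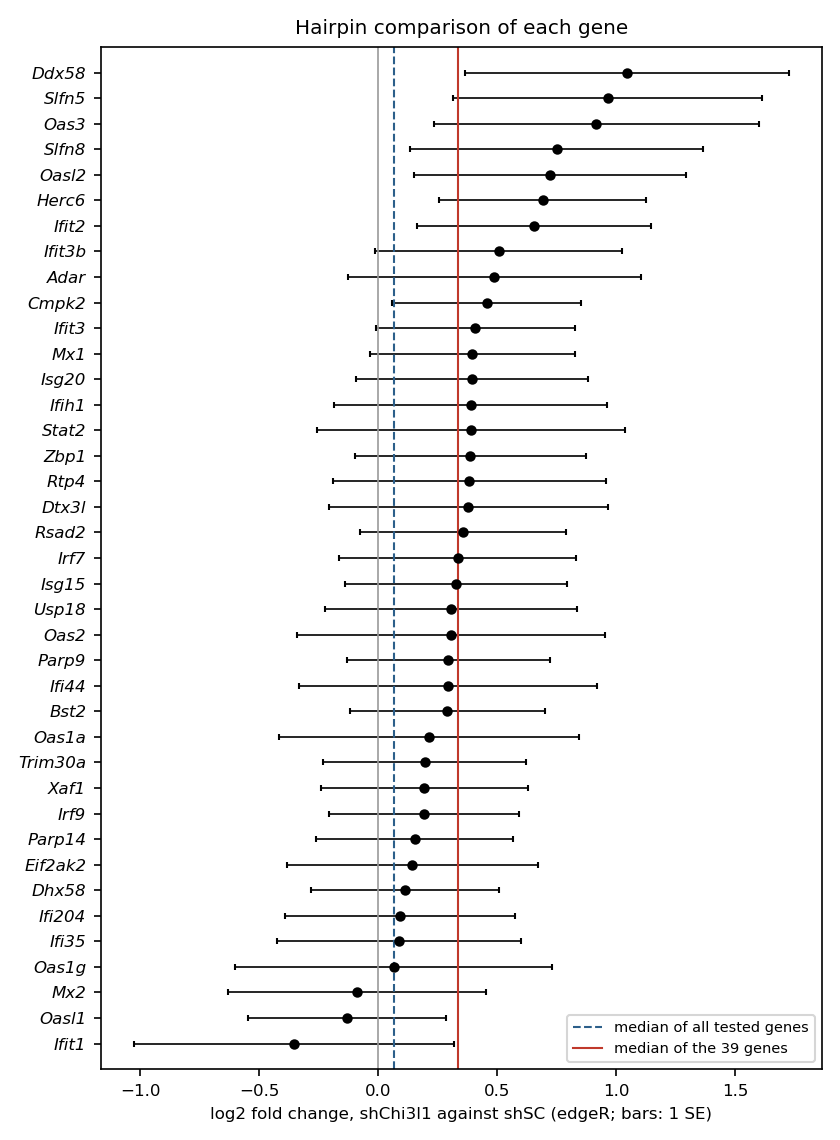
Fitted log2 fold change of each of the 39 genes (points, horizontal axis; bars are 1 SE), shChi3l1 against shSC, 3 against 4 libraries. The median of the 39 genes (solid red line) was 0.33 and that of all genes tested (dashed blue line) 0.07, and the SE bars of most genes reach 0.

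The transcription factors that carry the response were expressed in every library. Irf7 (ENSMUSG00000025498.15, chr7:141262706-141266481 in mm10), the factor that drives interferon alpha genes, stood at 410.5, 1081 and 591 CPM in shChi3l1 1, 2 and 3 and at 645, 763, 568 and 227 CPM in shSC 1, 2, 3 and 4. The lowest library was shSC 4 and the highest shChi3l1 2, and the other 5 libraries of both groups were interleaved. Its log2 fold change was 0.33 (SE 0.50). Stat2 (ENSMUSG00000040033.16, chr10:128270559-128292849), the STAT specific to this response, stood at 12.9, 72.0 and 48.6 CPM with shChi3l1 and at 14.8, 62.4, 40.6 and 18.2 CPM with shSC. Both groups held libraries under 20 and over 60 CPM, so its log2 fold change of 0.39 (SE 0.65) was smaller than the spread within either group. Irf9 (ENSMUSG00000002325.15, chr14:55603571-55610030), the DNA-binding subunit of ISGF3, stood at 93.8, 119 and 99.5 CPM with shChi3l1 and at 103, 95.7, 125 and 40.1 CPM with shSC. Apart from shSC 4, all its libraries lay close together, and its log2 fold change was 0.19 (SE 0.40).

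Among the 5 cytoplasmic nucleic acid sensors, all 5 had log2 fold changes above 0, with a median of 0.39. Ddx58 (RIG-I, which binds RNA with a 5′ triphosphate; ENSMUSG00000040296.15, chr4:40203773-40239828) stood at 9.35, 51.6 and 27.7 CPM with shChi3l1 and at 6.16, 30.7, 7.43 and 12.97 CPM with shSC. Its log2 fold change of 1.05 (SE 0.68) was the largest of the 39 and its unadjusted p in edgeR was 0.159. The shSC 2 library exceeded 2 of the 3 shChi3l1 libraries, so the groups overlapped. Ifih1 (MDA5, a sensor of long double-stranded RNA) differed by 0.39, Zbp1 (a sensor of Z-form nucleic acid that can trigger necroptosis) by 0.39, Dhx58 (LGP2, which modulates both RNA sensors) by 0.11 and Ifi204 (a DNA sensor of the p200 family) by 0.09 on the log2 scale.

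The 4 Ifit genes, whose products bind viral RNA or block its translation, lie in a single cluster at chr19:34550694-34650009 and did not vary together. Ifit2 (ENSMUSG00000045932.12, chr19:34550694-34576419) stood at 49.6, 166 and 64.0 CPM with shChi3l1 and at 40.5, 97.4, 49.5 and 49.2 CPM with shSC. Its highest library was shChi3l1 2 and its next highest shSC 2, and the remaining libraries of both groups lay between 40.5 and 64.0 CPM; its log2 fold change was 0.66 (SE 0.49; unadjusted p in edgeR 0.215). Ifit1 was the lowest of the 39 in the comparison (-0.36, SE 0.67), whereas Ifit3 and Ifit3b were at 0.41 and 0.51. Ifit3 and Ifit3b share 51.2% and 44.5% of their 50-base words, so reads could have been split between them, and their values are uncertain one by one.

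The 2′-5′ oligoadenylate synthetases (OAS) make the messenger that switches on RNase L, and Oasl1 and Oasl2 are their relatives. Oas3 (ENSMUSG00000032661.9, chr5:120753098-120777661) stood at 21.9, 160.2 and 87.9 CPM with shChi3l1 and at 43.2, 90.4, 39.8 and 17.1 CPM with shSC. It spanned 9.35-fold from shSC 4 to shChi3l1 2, the widest range among the 39 genes. Its log2 fold change was 0.92 (SE 0.68; unadjusted p in edgeR 0.210). Oasl2 (ENSMUSG00000029561.17, chr5:114896936-114912234) stood at 75.3, 353 and 173 CPM with shChi3l1 and at 88.8, 221, 107 and 69.1 CPM with shSC, a log2 fold change of 0.72 (SE 0.57). Oasl1 (ENSMUSG00000041827.15, chr5:114923240-114937915), its neighbour and an inhibitor of Irf7 translation, stood at 158, 407 and 169.8 CPM with shChi3l1 and at 235, 273, 226 and 339 CPM with shSC. Its highest library was shChi3l1 2 but the other 2 shChi3l1 libraries were its lowest, and its log2 fold change was -0.13 (SE 0.42). Oas1a (ENSMUSG00000052776.10, chr5:120896256-120907521), the most abundant OAS gene, stood at 579, 281 and 167 CPM with shChi3l1 and at 587, 221, 281 and 92.6 CPM with shSC. Replicate 1 was by far its highest in both groups, and its log2 fold change was 0.21 (SE 0.63). Oas1a shares 57.6% of its 50-base words with Oas1g, which was at 0.07, so these values are uncertain one by one; Oas2 was at 0.31 and Eif2ak2 (PKR, the kinase that stops translation on double-stranded RNA) at 0.14.

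Isg15 and its enzymes make and remove a ubiquitin-like tag. Isg15 (ENSMUSG00000035692.7, chr4:156199455-156200796), the modifier itself, stood at 608, 244 and 195 CPM with shChi3l1 and at 356, 229.8, 337 and 189.7 CPM with shSC. One library, shChi3l1 1, exceeded all others, while shChi3l1 3 was next to the lowest; the log2 fold change was 0.33 (SE 0.47). Herc6 (ENSMUSG00000029798.11, chr6:57581000-57664632), the mouse ligase for ISG15, had the smallest unadjusted p of the 39 genes in edgeR (0.147). It stood at 19.3, 49.7 and 39.3 CPM with shChi3l1 and at 17.7, 35.6, 21.6 and 14.5 CPM with shSC, means of 36.1 ± 15.4 (SD, n = 3) and 22.3 ± 9.30 CPM (SD, n = 4), for a log2 fold change of 0.69 (SE 0.44). The 2 highest libraries were shChi3l1 and the lowest was shSC, but shChi3l1 1 lay below 2 of the shSC libraries. Usp18, which removes ISG15 and blocks the receptor, was at 0.31.

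**Figure D2:**
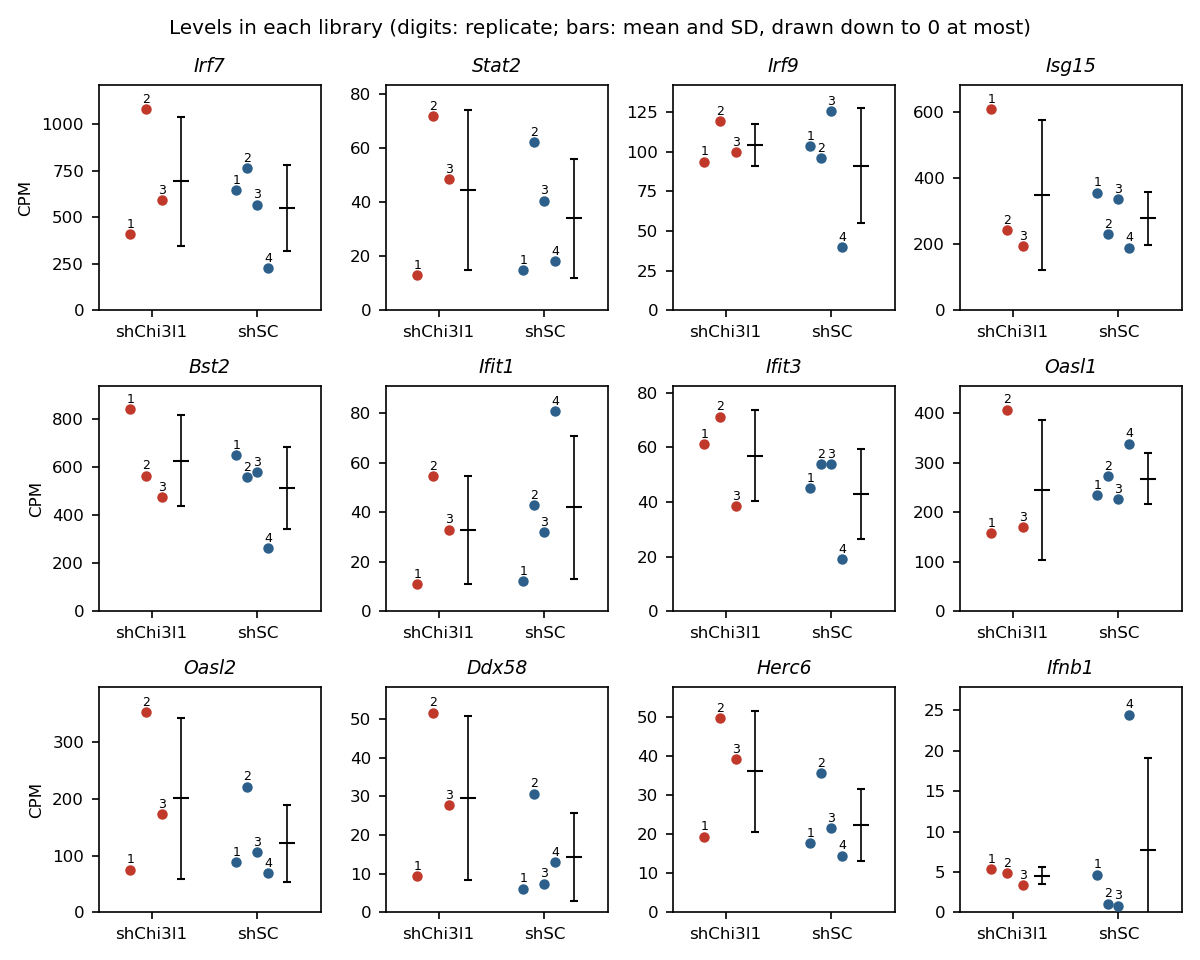
CPM (vertical axis, from 0, a scale for each panel) of 12 genes in each library (points, with the replicate number) by hairpin, with mean and SD beside them; SD bars stop at 0. In all 12 panels the groups overlap, and in Ifnb1 the library shSC 4 (24.5 CPM) stands above all others while it is the lowest for Irf7 (227 CPM).

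Bst2 (tetherin, which holds budding virus at the cell surface; ENSMUSG00000046718.8, chr8:71534255-71537456) was the most abundant of the 39 per length, with a mean of 621 RPKM over the 7 libraries, followed by Isg15 (439 RPKM), Oas1a (167), Irf7 (162), Oasl1 (99.1) and Rtp4 (99.0). Bst2 stood at 839.6, 564 and 476 CPM with shChi3l1 and at 648, 559, 577 and 264 CPM with shSC. The 6 libraries other than shSC 4 lay within 476 to 839.6 CPM, and its log2 fold change was 0.29 (SE 0.41). The least abundant was Mx2 (0.641 RPKM), a dynamin-like GTPase, at -0.09; its relative Mx1 was at 0.40 and Ifi44, a cytoplasmic antiproliferative protein, at 0.29. Rtp4 (ENSMUSG00000033355.6, chr16:23520291-23614222), a receptor-transporting protein, stood at 434, 177 and 118 CPM with shChi3l1 and at 305, 164, 206 and 70.9 CPM with shSC. Replicate 1 was the highest library of each group, as for Oas1a and Bst2, and its log2 fold change was 0.38 (SE 0.57).

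All 4 enzymes that act on RNA or nucleotides had log2 fold changes above 0: Adar (the editing enzyme ADAR1) 0.49, Cmpk2 (a mitochondrial nucleotide kinase) 0.46, Isg20 (an exonuclease) 0.39 and Rsad2 (viperin, which makes a chain-terminating nucleotide) 0.36. Parp9 and Dtx3l, which form a ubiquitin ligase together and share a bidirectional start region, were at 0.30 and 0.38, and the neighbouring Parp14 at 0.15. Among the Schlafen genes, which restrict translation or growth, Slfn8 was at 0.75. Slfn5 (ENSMUSG00000054404.13, chr11:82951349-82964840) stood at 14.0, 67.4 and 22.0 CPM with shChi3l1 and at 9.24, 36.9, 11.1 and 13.3 CPM with shSC, a log2 fold change of 0.97 (SE 0.65; unadjusted p in edgeR 0.170). Replicate 2 was its highest library in both groups, and shSC 2 exceeded 2 of the 3 shChi3l1 libraries. Xaf1 (a pro-apoptotic partner of XIAP), Trim30a (a TRIM ligase) and Ifi35 (a partner of NMI) were at 0.19, 0.20 and 0.09.

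Most of the 39 genes shared their highest library, and most shared their lowest. The library shChi3l1 2 was the highest of the 7 for 25 of the 39 genes (18.4% of all genes tested), and shSC 4 was the lowest for 22 (16.1% of all genes). A level for each library was taken as the mean over the 39 genes of log2 CPM less the gene's mean across libraries. It was -0.13, 0.75 and -0.01 in shChi3l1 1, 2 and 3 and -0.16, 0.40, -0.06 and -0.79 in shSC 1, 2, 3 and 4. Group means of this level were 0.20 ± 0.48 (SD, n = 3) and -0.15 ± 0.49 (SD, n = 4), so the difference was smaller than either spread, and the 2 groups overlapped. A high shChi3l1 2 was not particular to the 39 genes. It also had the highest level for other interferon-stimulated genes (0.50), nucleic acid sensing genes (0.74), receptor and signalling genes (0.43) and macrophage markers (0.61). The lowest was shSC 4 for the first of these (-0.62) and shChi3l1 1 for the rest. Markers of the other cell types, and the ligand genes, were highest in other libraries. The biological coefficient of variation in edgeR had a median of 48.8% over the 39 genes, against 44.5% over the 9370 tested genes whose mean log2 CPM reached 2. The highest library exceeded the lowest by a median of 4.41-fold over the 39 genes, against 2.96-fold over the same 9370.

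**Figure D3:**
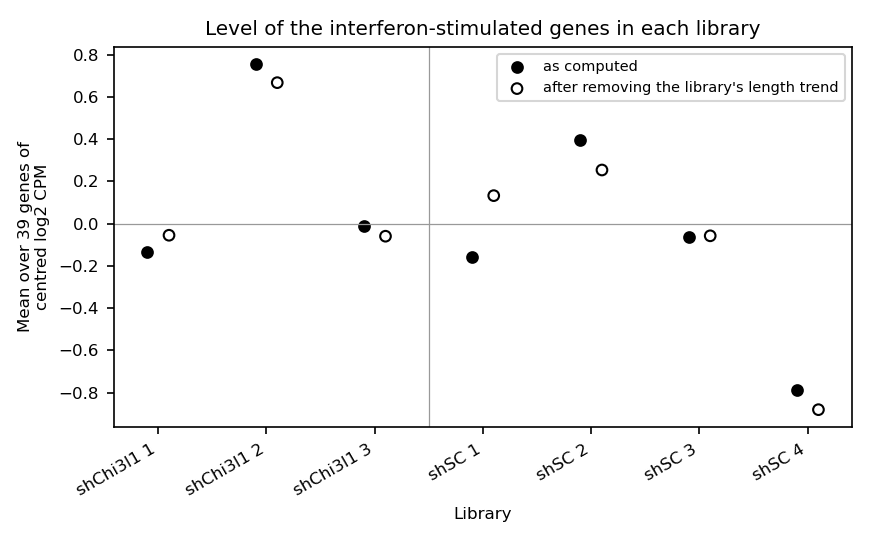
Mean over the 39 genes of log2 CPM less the gene's mean across libraries (vertical axis), in each of the 7 libraries; filled points as computed, open points after each library's trend with gene length was removed. The library shChi3l1 2 (0.75) is the highest and shSC 4 (-0.79) the lowest, and the other 5 lie between -0.16 and 0.40.

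Genes that peaked in different libraries differed in median exonic length, although their ranges overlapped. The 25 genes highest in shChi3l1 2 had a median of 4451 bases (1745 to 9306). The 4 that were highest in shChi3l1 1 (Isg15, Bst2, Rtp4 and Zbp1) had a median of 1517 bases (703 to 3529). The 5 highest in shSC 1 (Oas1a, Oas1g, Usp18, Xaf1 and Ifi35) had a median of 2340 bases (1727 to 4689). Across the 39 genes, Spearman's rho between length and the log2 ratio of replicate 2 over replicate 1 was 0.68 within shChi3l1 and 0.66 within shSC, against 0.48 and 0.42 across the 15448 genes tested. Genes of 1 library are not independent, and the ratios share depth and library, so no p is given. In each group, replicate 1 is the library in which long genes took the smallest share of the reads. Each library's length trend was then removed, a step added after the data were seen. After it the level was -0.06, 0.67 and -0.06 with shChi3l1 and 0.13, 0.25, -0.06 and -0.88 with shSC, and rho within each group was 0.38 and 0.36. The library shChi3l1 2 was then highest for 23 of the 39 genes (15.5% of all genes). The library shSC 4 was lowest for 26 (20.4% of all genes). The fold changes then had a median of 0.27, with 36 of the 39 above 0 (51.0% of all genes), and together with the replicate block 20 were above 0 (45.5% of all genes).

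**Figure D4:**
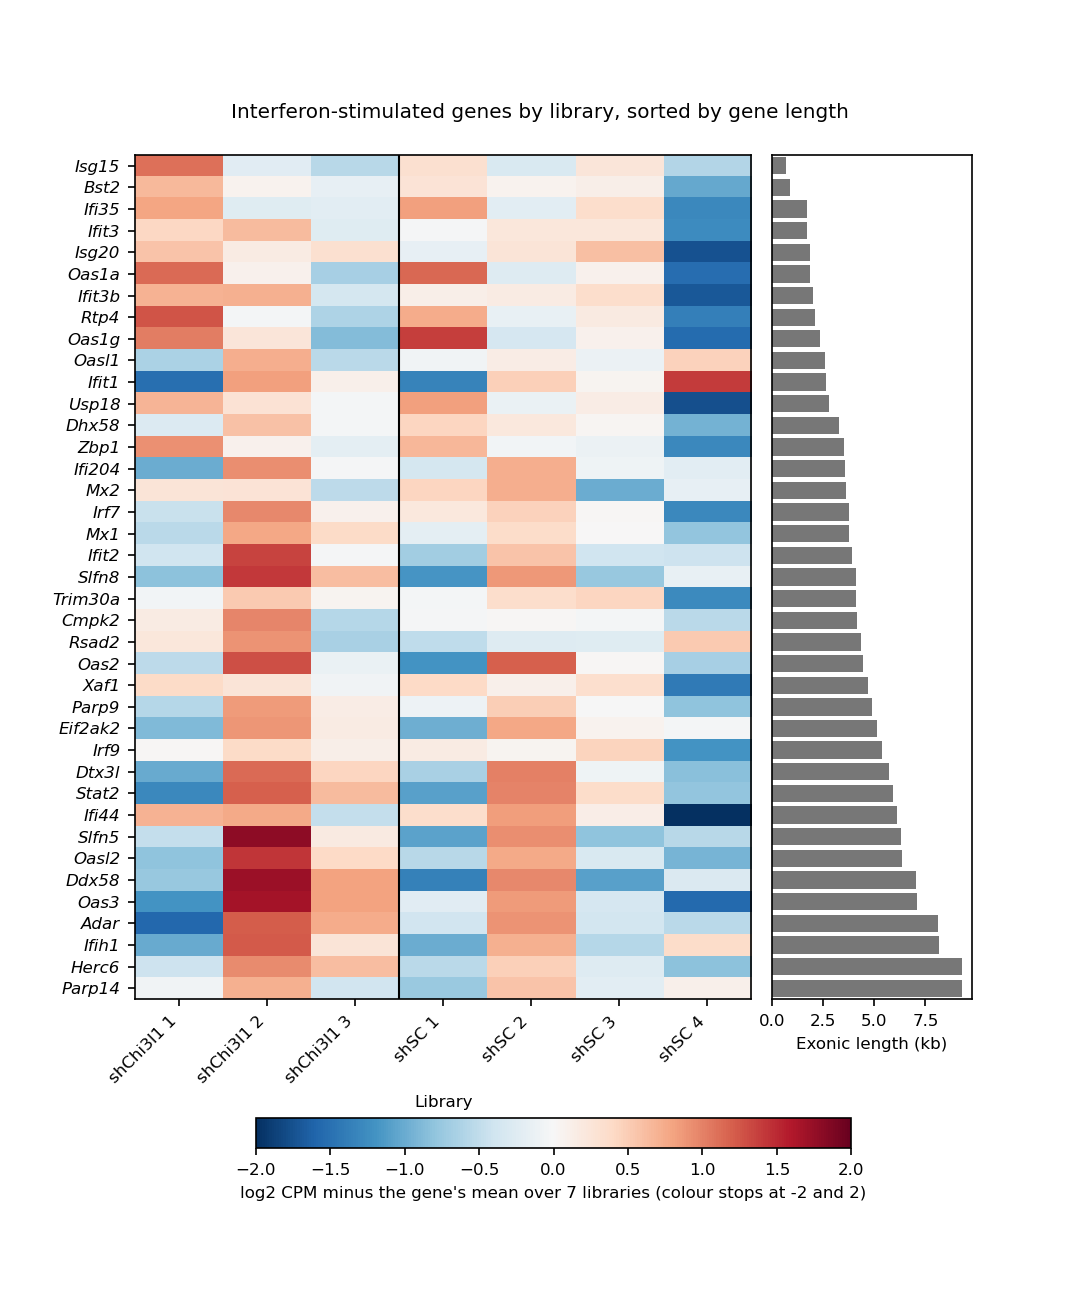
Colour gives log2 CPM minus the gene's mean over the 7 libraries for each of the 39 genes (rows, from the shortest at the top to the longest at the bottom), with exonic length in kb as bars on the right. Most long genes are high in shChi3l1 2 and shSC 2, most of the shortest in shChi3l1 1 and shSC 1, and shSC 4 is low for most genes but not for Ifit1, Oasl1 and Rsad2.

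Within same-numbered replicates the genes were mostly higher with shChi3l1 in replicate 2 only. In replicate 1, 18 of the 39 genes were higher with shChi3l1 (54.3% of all genes), with a median log2 ratio of -0.01. In replicate 2, 35 were higher (50.8% of all genes), with a median of 0.35. In replicate 3, 18 were higher (49.9% of all genes), with a median of -0.08. Over all genes tested the medians were 0.08, 0.01 and 0.00, so the median of the 39 genes lay furthest from that of all genes in replicate 2. The 6 genes higher in all 3 pairs (15.4%, against 12.5% of all genes) were Ifit2, Ddx58, Eif2ak2, Herc6, Slfn5 and Slfn8, and the 1 lower in all 3 (2.56%, against 10.7%) was Ifi35. Ddx58 was higher by 0.60, 0.75 and 1.90 on the log2 scale in replicates 1, 2 and 3, and Slfn5 by 0.60, 0.87 and 0.98. By contrast, Oas3 was at -0.98, 0.83 and 1.14 and Isg15 at 0.77, 0.09 and -0.79, so these 2 genes lay on opposite sides of 0 in replicates 1 and 3.

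**Figure D5:**
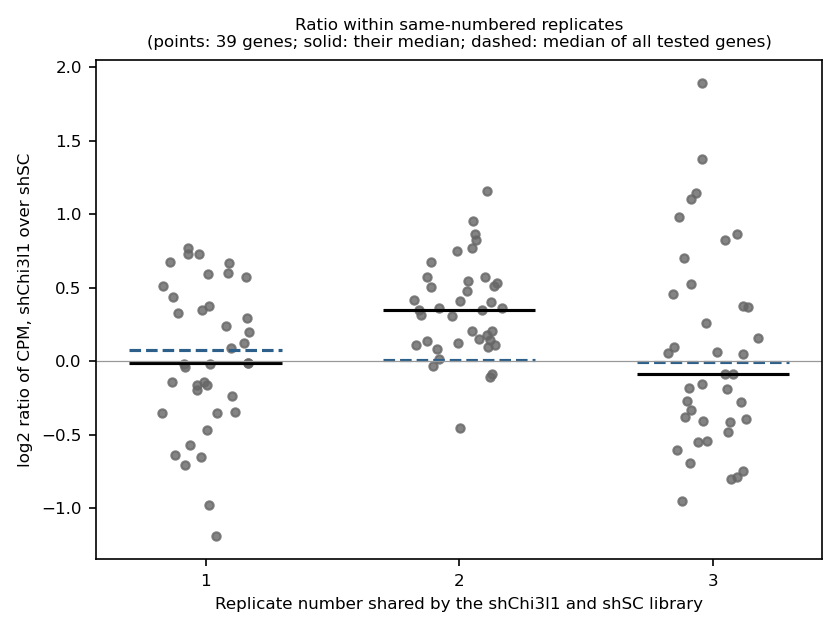
Log2 ratio of CPM, shChi3l1 over shSC (vertical axis), within each of the 3 same-numbered replicate pairs (horizontal axis); points are the 39 genes, the solid line their median and the dashed line the median of all genes tested. The genes straddle 0 in replicates 1 and 3 (medians -0.01 and -0.08) and lie mostly above it in replicate 2 (median 0.35).

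The library shSC 4, which has no same-numbered partner, combined the highest interferon beta transcript with the lowest level of most interferon-stimulated genes. Ifnb1, the interferon beta gene, stood at 5.40, 4.84 and 3.41 CPM with shChi3l1 and at 4.67, 1.10, 0.852 and 24.5 CPM with shSC, from 570 reads in shSC 4 and 25 to 163 in the others. Against the mean of the other 3 shSC libraries, 34 of the 39 genes were lower in shSC 4 (54.8% of all genes), with a median fold of 0.498 (0.940 over all genes). Isg20 was 4.04-fold lower, Usp18 4.24-fold lower and Ifi44 6.80-fold lower there. The 5 genes that were higher are Ifit1 (2.79-fold), Rsad2 (1.81-fold), Oasl1 (1.38-fold), Ifih1 (1.37-fold) and Parp14 (1.10-fold). These genes were named after their values had been seen, and a comparison of 1 library with 3 has no replicate check.

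The 39 genes lie in 27 loci, of which 7 hold more than 1 of them, and in 4 of these 7 loci shSC 4 ranked neighbours far apart. In the Ifit cluster, Ifit1 stood at 10.9, 54.5 and 33.0 CPM with shChi3l1 and at 12.2, 42.9, 31.9 and 81.0 CPM with shSC, highest in shSC 4. Ifit3 stood at 61.3, 71.3 and 38.6 CPM with shChi3l1 and at 45.2, 53.8, 53.8 and 19.1 CPM with shSC, lowest in shSC 4, although both windows printed above hold 2 ISRE core matches. At chr5:114896936-114937915, shSC 4 was the lowest library for Oasl2 and the next to highest for Oasl1. At chr12:26442746-26479837, Rsad2 was 1.81-fold higher in shSC 4 than in the other shSC libraries and Cmpk2 1.43-fold lower. At chr16:35832874-35972605, shSC 4 was the lowest library for Parp9 and the third highest for Parp14. The library shSC 4 had the lowest depth of the 7. It also had the most gene identifiers with reads (23878, the others 19960 to 23579) and the largest TMM factor (1.21, the others 0.805 to 1.09). Its shares of reads from genes with over 5000 exonic bases (19.8%) and from ribosomal protein genes (4.59%) lay within the range of the others. Its summed level of 12 tumour and glial markers was 351 CPM, against 13.8 to 95.2 CPM in the other 6 libraries. Whether library quality or tumour RNA had a part in the pattern was not tested.

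Other parts of the pathway also held no gene that passed edgeR's test. Of 18 ligand genes 3 had enough reads to be tested and 8 had no reads in any library. Ifna1 had a log2 fold change of -1.33 (SE 1.44) and Ifna2 of -1.04 (SE 1.29), each at no more than 1.06 CPM in any library, and Ifnb1 one of -0.77 (SE 1.04). Of 14 genes of the receptor and its signalling 12 had log2 fold changes above 0, with a median of 0.19. Ifnar2, a receptor chain, was at 0.32 (SE 0.35), and Socs3, a feedback inhibitor and the most abundant of these genes per length (219 RPKM), at 0.26 (SE 0.38).

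Of the 15 genes that sense nucleic acid or relay that signal 14 were tested and 13 were above 0, with a median of 0.38. Unc93b1, which carries endosomal Toll-like receptors and was the most abundant of them (387 RPKM), was at 0.50 (SE 0.40), Tlr9, a receptor for unmethylated DNA, at 0.83 (SE 0.47) and Trim25, which activates RIG-I, at 0.58 (SE 0.33). Trex1 is listed at 0 in every library, and all of its exonic bases are overlapped by another annotated gene. Among 39 other interferon-stimulated genes 34 were above 0, with a median of 0.25, and the groups did not overlap in 3 higher and 1 lower (1.24% and 1.25% of all genes). The smallest unadjusted p of that list in edgeR were those of Parp12 (0.0745), at 0.82 (SE 0.41), and Ddx60 (0.0851), at 0.73 (SE 0.38). Ifi27l2a, the most abundant (2014 RPKM), stood at 2406, 380.2 and 644 CPM with shChi3l1 and at 1388, 461, 848 and 402 CPM with shSC, with replicate 1 highest in both groups. The ISRE core stood in 20 of the 36 matched windows of that list (55.6%).

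These are bulk libraries, in which fewer cells of a type and less RNA per cell cannot be told apart. Macrophage markers were present in all libraries: all 12 were tested, 12 of 12 had log2 fold changes above 0 with a median of 0.33, the summed level was 34918 to 52336 CPM with shChi3l1 and 24172 to 36616 CPM with shSC, and Lyz2 was the most abundant. Microglial markers had log2 fold changes above 0 in 10 of 10, with a sum of 1216 to 4411 CPM with shChi3l1 and 977 to 1687 CPM with shSC; 6 of the 10 had an unadjusted p under 0.05 in edgeR (1.48% of all genes) and 0 were called. Their sum was 1216, 2185 and 4411 CPM in shChi3l1 1, 2 and 3, so shChi3l1 1 lay within the range of shSC and shChi3l1 3 was the highest. Tumour and glial markers were below 0 in 11 of 11 tested of 12, with a sum of 13.8 to 95.2 CPM with shChi3l1 and 41.4 to 351 CPM with shSC, Fabp7 leading. B-cell markers were above 0 in 9 of 9 tested of 10, with a sum of 155 to 1878 CPM with shChi3l1, the highest in shChi3l1 3, and 82.1 to 535 CPM with shSC, Ighm leading. Plasmacytoid dendritic cells are a known source of interferon alpha. Their markers were above 0 in 5 of 10, at 738 to 1161 CPM with shChi3l1 and 443 to 1161 CPM with shSC, Irf8 leading, which macrophages express too. Markers of conventional dendritic cells (5 of 10 above 0, Ccr7 leading), T and NK cells (5 of 12, Gzma leading), neutrophils (2 of 6 tested of 10, S100a8 leading) and endothelium and pericytes (6 of 8 tested of 10, Cldn5 leading) overlapped in their sums between the groups. The leading gene of each list is the one of highest RPKM. In CPM, S100a8 held 67.3 of the neutrophil sum of 88.2 in shChi3l1 1. Csf3r instead held 139 of 148 CPM in shChi3l1 2 and 141 of 147 CPM in shChi3l1 3. No marker of any of these lists was at 0 in all libraries, and the part of each cell type in the levels of the 39 genes was not tested.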

How the data were processed

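The 7 deposited files hold raw read counts per gene, which the authors made with Trim Galore, HISAT2 and featureCounts on mm10, per the submitters' processing notes. The labels' protocols give sorted macrophages, a SMART-Seq low-input kit (10 ng RNA) for cDNA and Nextera XT (1 ng cDNA) for the libraries. Such libraries do not mark strand and carry no molecular identifiers, so reads from overlapping genes cannot be told apart by strand, and copies from PCR are counted. No gene of the list had over 25% of its exonic bases overlapped. Of 55385 identifiers, 241 had no symbol, and 54851 had the coordinates of GENCODE release 21. Mnda and Ifi211 have the same identifier and were counted once.

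Counts were tested with edgeR 4.0.16 (R 4.3.3; filterByExpr with a minimum count of 10, TMM, quasi-likelihood, adjusted p threshold 0.05), with hairpin as the only term and all 7 libraries. Ratios and levels on the log2 scale had 0.5 added to the counts. Alternatives were DESeq2 1.42.0, limma 3.58.1 voom with sample weights, other scalings, no filter, a replicate block, libraries left out, and, added after the data were seen, offsets for each library's loess trend with gene length. Only the main edgeR fit was tried on simulated counts, with genes drawn independently and no length or composition shift between libraries. Its outcome is not reported here. Over 21 pairs of libraries the lowest chi-square per gene was 139, so no library was a copy of another.

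The labels call replicates 1 to 3 pairs. Deviations from the group means correlated over 15448 genes at 0.306, 0.26 and 0.188 for equal numbers, each over the 0.1 that was required. Of the differently numbered pairs, shChi3l1 3 with shSC 2 reached 0.322 and shChi3l1 2 with shSC 4 reached 0.2, and the rest stayed below 0.1.

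The genes, the companion lists and the cell type lists were chosen with earlier results of these data known. Named with values in every library were the 6 genes of smallest unadjusted p, the 6 of highest RPKM, any whose groups did not overlap (there were none), Irf7, Irf9 and Stat2; from each companion list the 2 of smallest p and the most abundant; and from each cell type list the most abundant. Some genes that this rule picks from those lists are not reported here. Values given in every library for Ifit1 and Ifit3, and for Rsad2 and Cmpk2 in shSC 4, were chosen after they had been seen. Promoter sequences are RefSeq's, and no protein sequence was used.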

Additional observations from a re-analysis of the deposited data

Results flagged for a closer look

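In groups of 4 libraries, a library was marked where its gap to the nearest other, over the range of the group, passed Dixon's critical value, which chance does in about 5% of groups. Among the shSC libraries, shSC 2 stood apart upwards for Ifit2 (97.4 CPM, the others at 40.5 to 49.5), Adar (53.4 CPM, the others at 19.8 to 22.2) and Slfn5 (36.9 CPM, the others at 9.24 to 13.3). The library shSC 4 stood apart downwards for Cmpk2 (18.6 CPM, the others at 26.2 to 27.4). It stood apart upwards for Ifnb1 (24.5 CPM, the others at 0.852 to 4.67) and for the tumour and glial marker Fabp7 (140.4 CPM, the others at 13.1 to 24.1). Fabp7 was not alone. Other tumour and glial markers were also highest in shSC 4 among the shSC libraries, such as Pdgfra (10.95 CPM, the others at 0.536 to 1.09) and Ptprz1 (37.7 CPM, the others at 1.88 to 4.09). Gfap was not (2.79 CPM, the others at 1.27 to 18.8). The number of groups screened is not given here, so the marked genes cannot be set against that 5%.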

How the results depend on the processing

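Under all 17 alternatives 0 of the 39 genes were called, and the median log2 fold change stayed above 0. It ran from 0.026 (without shChi3l1 2) to 0.51 (without shSC 2) when 1 library was left out, and from 0.046 to 0.33 otherwise. Without shChi3l1 2 the median over all genes tested was higher than that of the 39, at 0.042, and without shSC 2 it was 0.076. DESeq2 called 1 gene of all tested, not one of the 39, where edgeR called 0. The number of genes above 0 ran from 21 to 38 when 1 library was left out, was 26 with the replicate block, and was 20 with the length trend offset and the replicate block together. The replicate block changed no call. In 11 of the 39 genes the direction held under every alternative, and all 11 were higher with shChi3l1. The alternatives reuse the same libraries, 36 of the 39 were above 0 in the reported fit, and no such count was taken over all genes. Values that turned to the other side of 0 are given on the log2 scale, and the cause was not tested. With the replicate block they were Ifit1 0.079, Oas1a -0.14, Oas1g -0.25, Irf7 -0.030, Irf9 -0.053, Ifi44 -0.12, Dhx58 -0.14, Xaf1 -0.086, Ifi35 -0.21, Ifi204 -0.12, Trim30a -0.069 and Rtp4 -0.057. With the length trend offset and the replicate block they were Ifit1 0.10, Oas1a -0.095, Oas1g -0.22, Irf7 -0.063, Irf9 -0.17, Stat2 -0.053, Ifi44 -0.27, Dhx58 -0.14, Xaf1 -0.17, Ifi35 -0.15, Ifi204 -0.14, Trim30a -0.12, Parp9 -0.077, Parp14 -0.031, Dtx3l -0.034, Eif2ak2 -0.0098, Adar -0.12 and Rtp4 -0.019. With no filter on low counts they were Oas1g -0.051 and Ifi35 -0.012, with upper quartile factors Ifi204 -0.0015, and with voom Isg15 -0.16, Parp14 -0.0036 and Rtp4 -0.023. Without both shChi3l1 3 and shSC 4 they were Ifit1 0.17, Mx2 0.038, Oasl1 0.21, Irf9 -0.024, Dhx58 -0.024 and Ifi35 -0.023. When 1 library was left out, fold changes ran for Ifit1 from -0.94 to 0.17, for Ifit2 from -0.066 to 1.00, for Isg15 from -0.38 to 0.61, for Mx2 from -0.40 to 0.18, for Oas1a from -0.46 to 0.77, for Oas1g from -0.54 to 0.75, for Oas2 from -0.45 to 0.95, for Oasl1 from -0.71 to 0.080, for Rsad2 from -0.086 to 0.67, for Irf7 from -0.14 to 0.56, for Irf9 from -0.055 to 0.32, for Stat2 from -0.15 to 0.85, for Ifi44 from -0.052 to 0.64, for Ifih1 from -0.28 to 0.75, for Dhx58 from -0.18 to 0.26, for Cmpk2 from -0.037 to 0.76, for Xaf1 from -0.079 to 0.33, for Zbp1 from -0.055 to 0.71, for Bst2 from -0.018 to 0.45, for Ifi35 from -0.38 to 0.42, for Ifi204 from -0.52 to 0.41, for Trim30a from -0.063 to 0.33, for Parp9 from -0.14 to 0.55, for Parp14 from -0.23 to 0.40, for Dtx3l from -0.17 to 0.92, for Eif2ak2 from -0.36 to 0.47, for Adar from -0.037 to 0.94 and for Rtp4 from -0.39 to 0.70. Each of the 39 genes had at least 32 reads in every library, and whether depth limited the comparison was not tested. No gene of the 39 was over the limit on overlap, so leaving such genes out gave the values as reported.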

Other observations

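Other neighbours of the list stayed on the same side of the mean of the other shSC libraries in shSC 4. At chr5:120730333-120907521, Oas2, Oas3, Oas1g and Oas1a stood at 0.505, 0.296, 0.231 and 0.255 of that mean. Slfn5 and Slfn8, at chr11:82951349-83020810, stood at 0.695 and 0.943. These values come from 1 library against 3 and were picked after they had been seen.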
